A study of Mus musculus with 26 samples.

Results

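The genes described here are 10 components of the bone morphogenetic protein (BMP) pathway: the ligand gene Bmp4, the receptor gene Bmpr1a, the decoy receptor gene Bambi, the signal transducer genes Smad1 and Smad5, the inhibitory Smad genes Smad6 and Smad7, and the target genes Id1, Id2 and Id3. They were chosen by name, with earlier results of these data known. A table of dTAG13-treated cells listed 53978 genes and a table of Tex10-overexpressing cells 50969. All 10 members were found in both tables, and all 10 passed the filter on low values. The question was how this gene set behaved while mouse epiblast-like cells (EpiLCs, a cultured counterpart of the early epiblast) were turned into primordial germ cell-like cells (PGCLCs), in cells treated to deplete the protein Tex10 or made to overexpress it.

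All cells were of strain 129Sv/J. In the depletion experiment, 2 libraries came from each of 5 groups, namely EpiLCs labelled untreated, day 2 PGCLCs with DMSO, day 2 PGCLCs with dTAG13 at 500 nM, and the same pair at day 4. dTAG13 is a small molecule that draws a tagged protein to the cell's degradation machinery, and DMSO is its solvent. The labels give neither the tag nor the hour at which the compound was added, and no EpiLC library with dTAG13 was analysed here. Cells treated with dTAG13 but lacking a tagged Tex10 were not analysed here either, so loss of Tex10 and other effects of the compound cannot be told apart. In the overexpression experiment, 1 empty-vector line and 2 Tex10 overexpression clones, all labelled untreated, gave 1 library each at 4 stages, EpiLCs and then day 2, 4 and 6 of induction. The promoter that drives the transgene is not given, and with 1 control line nothing is known of how such lines vary. Nothing in the labels says that libraries sharing a group came from separate cultures, so p-values measure only the spread between these samples, which may be technical.

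BMP ligands bind paired type I and type II receptor kinases, which phosphorylate Smad1, Smad5 and a close relative of theirs. These join Smad4, enter the nucleus and switch on targets, among which Id1, Id2 and Id3 are classic early responders. Id proteins lack a DNA-binding region and block basic helix-loop-helix factors, while Smad6, Smad7 and Bambi damp the signal and are themselves often induced by it. In the mouse embryo BMP4 from the extra-embryonic ectoderm induces germ cell fate in the epiblast, and PGCLC protocols imitate this by adding BMP4 to the medium. Bmp4 transcripts measured here are those made by the cells themselves.

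The stretches of 250 bases just upstream of the start sites of Id2, Id3, Smad6 and Bmp4 are shown because these genes moved in opposite directions with dTAG13 (Id2 and Id3 up, Smad6 and Bmp4 down). They come from RefSeq with the GRCm38.p6 build, in which 7 of the 10 members had an entry. Id1 had none. Capitals mark matches, on either strand, to GGCGCC and GGAGCC, a pair of GC-rich motifs associated with Smad1 and Smad5, or to CAGAC, a motif associated with Smad4. The palindrome GTCTAGAC was searched as well. No motif contains another. All 7 were searched. The Id2 and Id3 promoters were listed for the search by rule, and the other 5 were added later, those of Smad6 and Bmp4 being shown after their values had been seen.
Id2, chr12:25096093-25096342, minus strand: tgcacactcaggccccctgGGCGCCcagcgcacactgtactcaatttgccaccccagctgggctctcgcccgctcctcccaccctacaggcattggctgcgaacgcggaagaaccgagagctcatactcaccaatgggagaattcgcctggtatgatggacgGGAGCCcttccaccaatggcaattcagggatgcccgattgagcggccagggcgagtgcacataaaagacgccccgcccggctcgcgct
Id3, chr4:136143572-136143821, plus strand: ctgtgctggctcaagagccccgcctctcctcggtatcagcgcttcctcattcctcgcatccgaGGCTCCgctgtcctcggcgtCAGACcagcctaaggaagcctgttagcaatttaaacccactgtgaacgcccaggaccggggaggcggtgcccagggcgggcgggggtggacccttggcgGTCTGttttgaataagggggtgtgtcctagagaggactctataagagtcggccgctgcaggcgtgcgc
Smad6, chr9:64022060-64022309, minus strand: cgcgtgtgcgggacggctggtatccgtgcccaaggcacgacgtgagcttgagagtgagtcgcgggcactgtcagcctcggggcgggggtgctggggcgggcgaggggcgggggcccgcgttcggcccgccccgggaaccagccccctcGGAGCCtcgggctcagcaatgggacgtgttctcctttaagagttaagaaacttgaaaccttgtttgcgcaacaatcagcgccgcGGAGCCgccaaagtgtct
Bmp4, chr14:46390670-46390919, minus strand: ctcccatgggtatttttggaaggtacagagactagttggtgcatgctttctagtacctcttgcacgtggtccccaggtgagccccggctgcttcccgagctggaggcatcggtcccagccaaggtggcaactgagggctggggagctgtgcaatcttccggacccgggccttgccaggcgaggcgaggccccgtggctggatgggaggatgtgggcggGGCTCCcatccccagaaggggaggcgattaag

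Counting the base next to the start as -1, Id2 carried GGCGCC from -231 and GGAGCC from -88. Id3 carried GGAGCC, on the other strand, from -187 and CAGAC from -167 and again, on the other strand, from -68. Smad6 held GGAGCC at -102 and at -18, and Bmp4 held it at -32 on the other strand. GGAGCC was found in 25.7% of 27025 promoter windows of this length, GGCGCC in 9.54%, CAGAC in 42.1% and GTCTAGAC in 0.174%. Of the other promoters searched, that of Bmpr1a held GGCGCC once, from -198, and those of Smad1 and Smad5 held none of the 4 motifs in this window. Matches occurred upstream of genes that rose (Id2, Id3) and of genes that fell (Smad6, Bmp4), while Smad5, which also rose, had none, and a match is only a description of the letters.

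On the GRCm38 annotation (GENCODE M21), Id1 spans chr2:152736251-152737410, Id2 chr12:25093799-25097140, Id3 chr4:136143497-136145755, Bmp4 chr14:46383520-46390669, Bmpr1a chr14:34410734-34503341, Smad1 chr8:79338395-79399518, Smad5 chr13:56703010-56742377 and Smad6 chr9:63953076-64022059, and values below are summed over each gene. Bambi and Smad7 lie on chromosome 18. The annotated spans of Id2 and Id3 extend past the RefSeq start used above. Bmp4 and Bmpr1a overlap annotated genes on the opposite strand. Whether the read counting used strand is not given in the sources used here, so reads of such partners cannot be told apart. The overlapping genes themselves were low, with no value above 2.05 in the depletion table or 5.01 in the overexpression table, both reached by Gm15222 at the Bmp4 locus.

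Levels are given as TMM-scaled CPM, which is CPM over a library size adjusted by the trimmed mean of M values. Libraries held 5055362 to 8564563 reads in the depletion table and 5227287 to 7484600 in the overexpression table. The fewest reads behind any member's value were 47 (Bambi) in the first table and 27 (Smad6) in the second. The 2 day 4 DMSO libraries stood apart from each other more than any other pair of one group, with a chi-square per gene of 15.1 against 1.83 to 5.23 elsewhere, so the value without either one is given wherever it changes a member's day 4 call or moves a called value by over 1.5 times. As a check of the labels, Tex10 RNA in the depletion table was 106 and 113 in day 2 DMSO and 104 and 94.0 in day 2 dTAG13, then 110 and 105 in day 4 DMSO and 76.8 and 72.8 in day 4 dTAG13. The log2 difference was -0.14 at day 2 (limma adjusted p = 0.322) and -0.51 at day 4 (limma adjusted p = 0.000576). Since dTAG13 acts on protein, RNA levels do not check the depletion. In the overexpression table Tex10 was between 145 and 213 in the vector line and between 330 and 654 in the clones, with the groups separate at every stage. Germ cell markers (8 genes) summed to 70.8 to 73.1 in EpiLCs and 254 to 269 in day 2 DMSO cells, while 5 formative epiblast markers summed to 1405 to 1643 in EpiLCs and 188 to 226 in day 2 DMSO cells.

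The Id genes were switched on between EpiLCs and day 2, in DMSO and in dTAG13 cells alike. Id1, a negative regulator of differentiation factors, was 6.84 and 8.86 in the 2 EpiLC libraries, 154 and 154 in day 2 DMSO and 207 and 246 in day 2 dTAG13. Id2, its relative with the same mode of action, was 6.34 and 5.98 in EpiLCs, 45.4 and 49.3 in day 2 DMSO and 75.4 and 72.2 in day 2 dTAG13. Id3 was 7.73 and 7.76 in EpiLCs, 30.8 and 32.4 in day 2 DMSO and 66.8 and 79.7 in day 2 dTAG13. For each of the 3 genes the EpiLC libraries were lowest, the DMSO libraries in the middle and the dTAG13 libraries highest, with no overlap. The share of all genes with such separate groups is not given here. With 2 libraries per group, non-overlap is therefore only a description, here and below, and members that were not called can show it too. The ratio of group means between day 2 DMSO and EpiLCs was 19.6 for Id1, 7.68 for Id2 and 4.08 for Id3. With dTAG13 the same ratios were 28.8, 11.98 and 9.46.

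On the log2(value + 1) scale, the rise of Id1 from EpiLCs to day 2 was 4.14 ± 0.177 (SE) in DMSO and 4.69 in dTAG13. That of Id2 was 2.75 and 3.39, and that of Id3 was 1.899 and 3.08. All 6 differences passed the test (limma with Benjamini-Hochberg adjustment over 16605 genes, adjusted p at most 2.63e-09). The 2 steps share the EpiLC libraries, so they are not independent. Their difference is the dTAG13 against DMSO comparison described further on.

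The other members took different courses over the same step in DMSO cells. Bmp4, the ligand gene, was 11.03 and 12.6 in EpiLCs and rose to 31.4 and 24.4 (log2 difference 1.17, adjusted p = 0.000116). Smad6, an inhibitor that competes with receptor-activated Smads, rose from 13.7 and 11.96 to 26.7 and 27.4 (1.02, adjusted p = 0.000246). Neither gene had overlapping groups. With dTAG13 neither difference from EpiLCs passed the test. Bmp4 was 16.3 and 11.1 and Smad6 15.1 and 10.8 at day 2, and both overlapped their EpiLC values. The log2 differences from EpiLCs were 0.18 (adjusted p = 0.477; 95% interval -0.23 to 0.59) and -0.00067 (adjusted p = 0.998; interval -0.39 to 0.38). Bmpr1a, a type I receptor gene, fell in both arms (-0.44 in DMSO and -0.41 in dTAG13), as did Bambi, a truncated decoy receptor gene (-0.66 and -1.22). The Bmpr1a call was lost in 3 of 13 alternatives in each arm, among them the fits without EpiLC replicate 2 (adjusted p = 0.0857 and 0.0682), without day 2 DMSO replicate 2 (0.058) and without day 2 dTAG13 replicate 1 (0.0739).

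In all, 8 of the 10 members were called between EpiLCs and day 2 DMSO, 6 higher and 2 lower, against 26.2% of all genes tested (11.5% higher and 14.7% lower). Between EpiLCs and day 2 dTAG13, 7 of 10 were called, 4 higher and 3 lower, against 49.9% of all genes tested (20.3% higher and 29.7% lower). Smad7, an inhibitor that blocks receptor activity, was 273 and 305 in EpiLCs and 276 and 331 in day 2 DMSO (0.07, adjusted p = 0.71), while in dTAG13 it fell to 207 and 206 (-0.48). Smad5 rose by 0.34 in DMSO, a call lost in 9 of 13 alternative settings, including the one with the replicate number as a block (adjusted p = 0.0549), and by 0.93 in dTAG13. The Bambi fall in DMSO was lost in 6 of 13. Without EpiLC replicate 2, and likewise without day 2 DMSO replicate 2, 5 members were called in the DMSO step.

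Set per kilobase of merged exons, so that genes can be compared with each other, Id1 was the most abundant member at day 2 in DMSO, with a mean of 133 TMM-scaled CPM per kb. Smad7 came next at 67.2, followed by Id2 at 19.4, Bmpr1a at 18.6, Id3 at 17.7, Bmp4 at 12.4, Smad6 at 8.44, Smad5 at 8.33, Smad1 at 6.49 and Bambi at 3.34. The library ranges of the neighbours Id2 and Bmpr1a overlapped, as did those of Bmpr1a and Id3 and of Smad6 and Smad5. In EpiLCs the order was another one, with Smad7 first at 64.0 per kb, Bmpr1a at 25.4, Smad1 at 8.24 and then Id1 at 6.77.

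**Figure D1:**
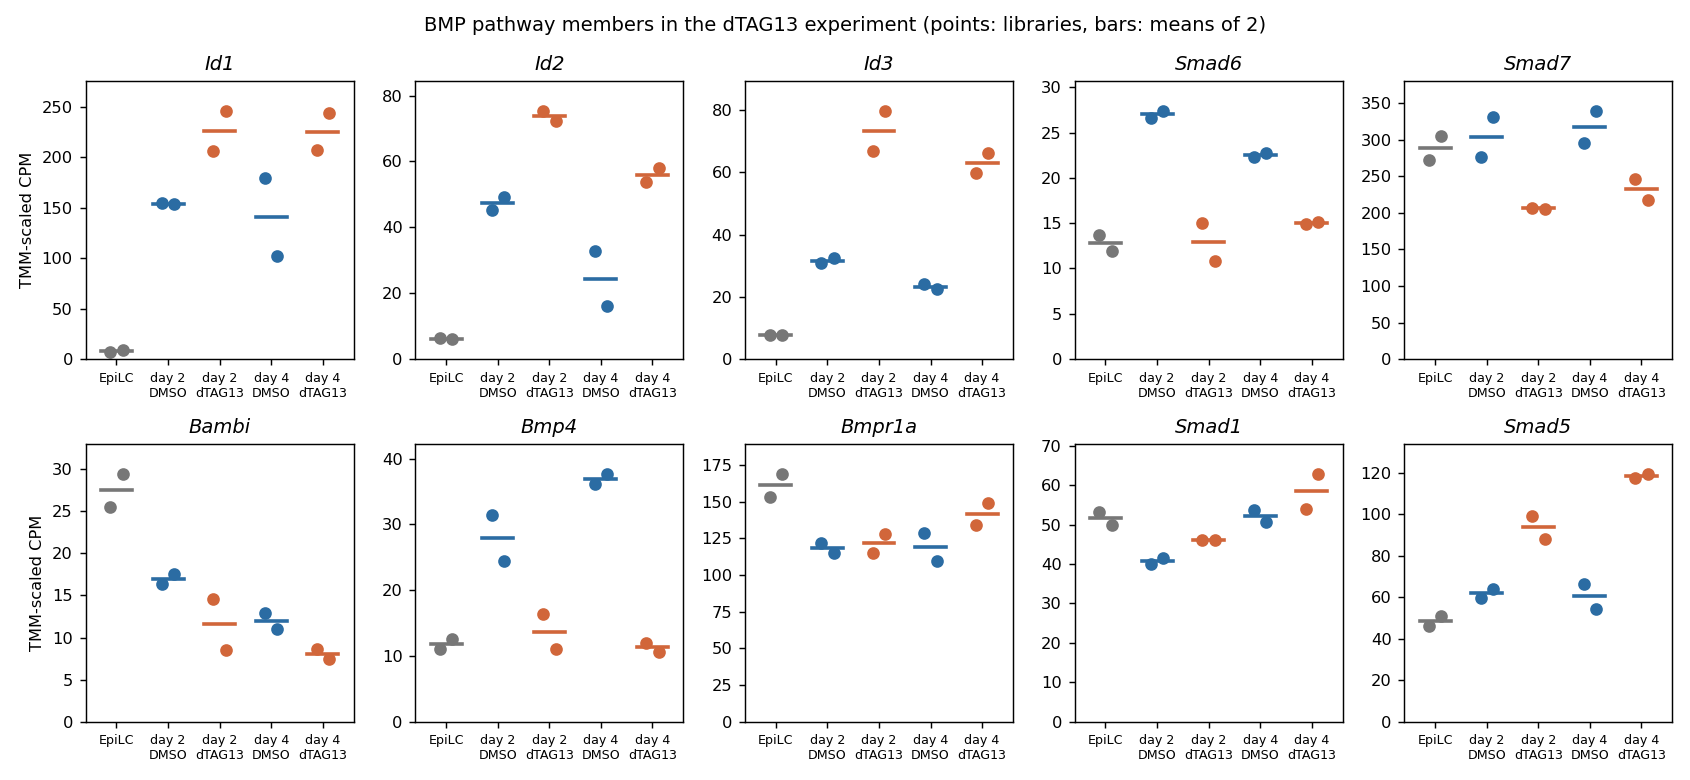
Level of each member in TMM-scaled CPM (vertical axes from 0, one scale per gene) in the 10 libraries of the depletion experiment; points are libraries and bars are means of 2. Id1, Id2 and Id3 start below 10 in EpiLCs and are highest with dTAG13, while Bmp4 and Smad6 with dTAG13 stay near their EpiLC levels.

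Libraries with dTAG13 were compared with those with DMSO at each day of induction. Id1, Id2 and Id3 were higher with dTAG13, and Bmp4 and the inhibitory Smad genes were lower. Of the 10 members, 4 were higher (Id1, Id2, Id3 and Smad5) and 3 lower (Bmp4, Smad6 and Smad7) at day 2. Of all genes tested, 33.6% passed there, 13.7% as higher and 19.9% as lower. At day 4 the same 4 members were higher and the same 3 lower, and 41.8% of all genes passed, 15.8% as higher and 26.0% as lower. The days have no library in common, although both were fitted with one shared estimate of the spread. No share of all genes called on both days is given here, so the recurrence of these members is only a description. The median log2 difference over the members was 0.11 at day 2 and 0.20 at day 4, beside -0.09 and -0.13 over all genes tested. Rescaling by median ratios moved the medians over all genes to -0.01 and -0.03, and the share of calls that were higher to 52.0% at day 2 (40.7% before) and 49.1% at day 4 (37.8% before), without turning the direction of any called member.

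Among the 3 Id genes, Id3 had the largest differences on both days, except that Id2 was ahead at day 4 (1.74 against 1.45) without day 4 DMSO replicate 1. Its day 2 values, given above, differed by 1.18 ± 0.145 (SE) on the log2 scale (adjusted p = 2.03e-06; 95% interval 0.88 to 1.48). At day 4 it was 24.2 and 22.4 in DMSO against 59.8 and 66.1 in dTAG13, a difference of 1.40 (adjusted p = 9.7e-08). The ratio of means was 2.32 at day 2 and 2.70 at day 4, and the groups did not overlap on either day. Id3 stayed called in all 13 alternative settings at each day.

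Id1 rose by 0.55 ± 0.177 (SE) at day 2 (adjusted p = 0.0208), a ratio of means of 1.47. At day 4 it was 180 and 102 in DMSO against 207 and 244 in dTAG13, a difference of 0.72 (adjusted p = 0.00223). The dTAG13 libraries were above both DMSO libraries on each day, but the distance at day 4 rests on day 4 DMSO replicate 2. Without that library the difference was 0.32 (adjusted p = 0.086), and without replicate 1 it was 1.13. The day 4 call was also lost with no filter (0.0515) and without the variance trend (0.0538). At day 2 the Id1 call was lost in 6 of 13 alternatives, among them DESeq2 (adjusted p = 0.0864) and the fits without day 2 DMSO replicate 1 (0.0762), day 2 DMSO replicate 2 (0.072) or day 2 dTAG13 replicate 2 (0.192).

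Id2 rose by 0.63 ± 0.206 (SE) at day 2 (adjusted p = 0.0217), a ratio of means of 1.56. At day 4 it was 32.8 and 16.0 in DMSO and 53.7 and 58.2 in dTAG13, a difference of 1.25 (adjusted p = 4.5e-05). No DMSO library reached a dTAG13 library on either day. The day 4 difference was 0.75 without day 4 DMSO replicate 2 and 1.74 without replicate 1, called both times. The day 2 call was lost when any of the 4 libraries was left out (adjusted p between 0.0525 and 0.116), with no filter (0.139) and without the variance trend (0.115).

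Bmp4, the ligand gene of the set, fell on both days. Its day 2 difference was -0.99 ± 0.196 (SE; adjusted p = 0.0005). At day 4 it was 36.1 and 37.7 in DMSO against 12.03 and 10.6 in dTAG13, a difference of -1.62 (adjusted p = 8.37e-07). The ratio of means was 0.491 at day 2 and 0.307 at day 4, and Bmp4 stayed called in all 13 alternatives at each day. Bmpr1a was 122 and 115 in day 2 DMSO and 115 and 128 in day 2 dTAG13, which overlapped (0.04, 95% interval -0.20 to 0.27, adjusted p = 0.834). At day 4 it was 129 and 110 against 134 and 149, a difference of 0.25 that did not pass (adjusted p = 0.0837) but did with median-ratio scaling (0.36, adjusted p = 0.0124), edgeR (0.37, adjusted p = 0.0126), DESeq2 (0.38, adjusted p = 0.0121) and without day 4 DMSO replicate 1 (0.36, adjusted p = 0.0203). Without day 4 DMSO replicate 2 it was 0.13 (adjusted p = 0.406).

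Bambi was 16.3 and 17.5 in day 2 DMSO and 14.6 and 8.56 in day 2 dTAG13, then 12.9 and 11.1 in day 4 DMSO and 8.65 and 7.47 in day 4 dTAG13. The dTAG13 libraries were below the DMSO libraries on each day, yet neither difference passed the test (-0.55, adjusted p = 0.0584, and -0.52, adjusted p = 0.0649). Leaving out day 2 dTAG13 replicate 1 brought the day 2 value to -0.91 (adjusted p = 0.00864), and leaving out day 2 dTAG13 replicate 2 brought it to -0.20 (adjusted p = 0.574).

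Of the 2 receptor-activated Smad genes, Smad5 passed the test and Smad1 did not. Smad5 was 59.5 and 64.2 in day 2 DMSO and 99.2 and 88.2 in day 2 dTAG13, then 66.6 and 54.6 in day 4 DMSO and 117 and 120 in day 4 dTAG13. It rose by 0.59 ± 0.123 (SE; adjusted p = 0.000777) and by 0.96 (adjusted p = 1.66e-06), with no overlap and with calls in all 13 alternatives at each day. Smad1, whose protein acts in the same step, was 39.9 and 41.4 in day 2 DMSO against 46.2 and 46.2 in dTAG13, and 53.6 and 50.7 in day 4 DMSO against 53.8 and 62.9 in dTAG13. Its differences of 0.18 (95% interval -0.08 to 0.44, adjusted p = 0.285) and 0.16 (adjusted p = 0.335) did not pass. Whether the responses of Smad1 and Smad5 differ from each other was not tested.

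The inhibitory Smad genes were lower with dTAG13. For Smad6, the day 2 difference was -1.02 ± 0.185 (SE; adjusted p = 0.000192), a ratio of means of 0.479, beside 1.01 for day 2 dTAG13 against EpiLCs. At day 4 Smad6 was 22.3 and 22.7 in DMSO and 15.0 and 15.1 in dTAG13, a difference of -0.55 (adjusted p = 0.02). The day 4 groups did not overlap, but the call was lost with any of the 4 libraries left out (adjusted p between 0.0562 and 0.0731), and with median-ratio scaling (0.0641), edgeR (0.0642) and DESeq2 (0.122). Smad7 was 295 and 340 in day 4 DMSO and 246 and 218 in day 4 dTAG13, a difference of -0.45 (adjusted p = 0.00263), after -0.55 ± 0.112 (SE; adjusted p = 0.00065) at day 2. All dTAG13 libraries lay below all DMSO libraries of their day, and the day 4 call was lost only without day 4 dTAG13 replicate 2 (adjusted p = 0.0581).

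The dTAG13 effect was also compared between the days. No member's effect was called as different between day 4 and day 2 in limma (0 of 10, with 1.25% of all genes tested called). At an unadjusted p under 0.05 there were 3 members, and edgeR and DESeq2 called 0. The largest values were -0.63 for Bmp4 (95% interval -1.21 to -0.06, adjusted p = 0.355) and 0.62 for Id2 (0.01 to 1.22, adjusted p = 0.401). The other of these 3 members was Smad5 (0.37, interval 0.013 to 0.73, adjusted p = 0.388). Such wide intervals do not show that the effects were equal on the 2 days. Without day 4 DMSO replicate 1, the Id2 difference was 1.11 (adjusted p = 0.00688), and without day 4 DMSO replicate 2 it was 0.12 (adjusted p = 0.862). That of Bmp4 was -0.37 (adjusted p = 0.716) without day 2 dTAG13 replicate 1. Between day 2 and day 4 in DMSO cells, Id2 fell by 1.01 (adjusted p = 0.00378) and was the single member called, against 5.52% of all genes tested. That call was lost without day 4 DMSO replicate 2 (-0.52, adjusted p = 0.0739), and without day 4 DMSO replicate 1 both Id2 and Id1 (-0.59, adjusted p = 0.0156) were called.

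**Figure D2:**
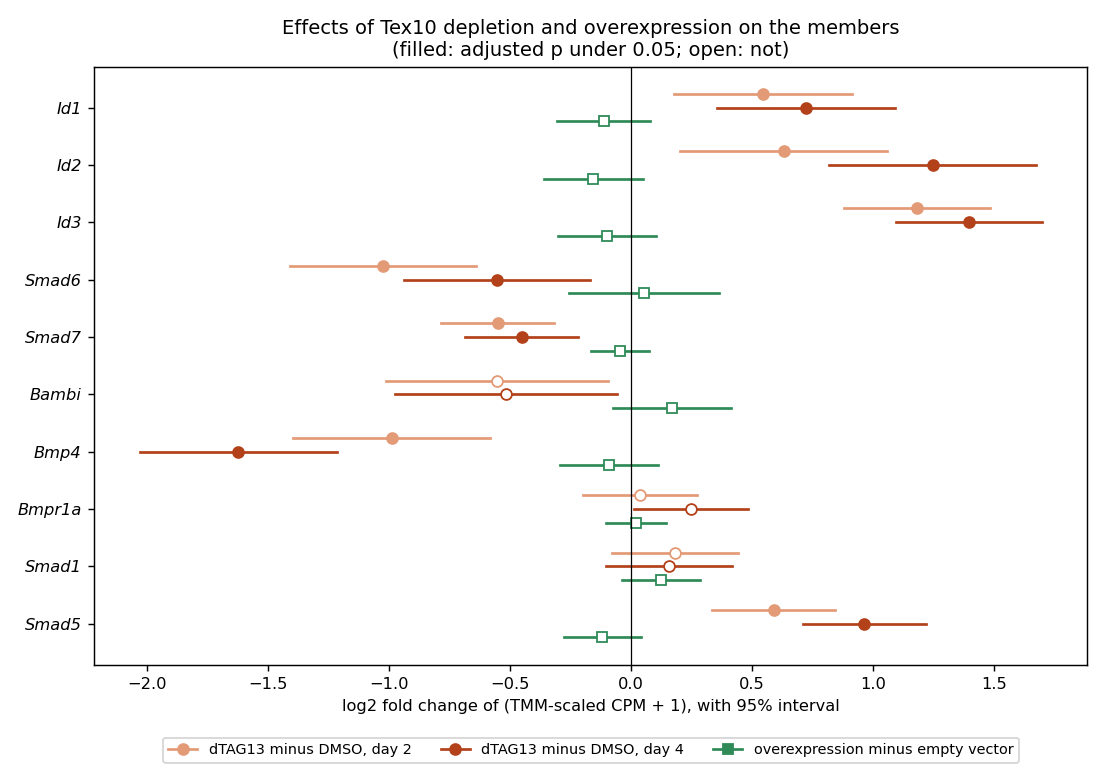
Log2 difference of each member with its 95% interval for dTAG13 minus DMSO at day 2 and day 4 and for overexpression minus empty vector over all stages (horizontal axis, log2(TMM-scaled CPM + 1)); filled symbols passed an adjusted p of 0.05. The Id genes and Smad5 lie right of 0 with dTAG13, Bmp4, Smad6 and Smad7 left of it, and the overexpression values cluster around 0.

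The authors' deposited table gives its own comparisons of the same groups. At an FDR under 0.05 it lists 4 members for dTAG13 against DMSO at day 2 (Bmp4 at -1.03, Smad5 at 0.60, Smad6 at -1.07 and Id3 at 1.21) and 4 at day 4 (Bmp4 at -1.70, Smad5 at 0.97, Id2 at 1.20 and Id3 at 1.43, all log2 fold changes). Of all 53978 genes in the authors' deposited table, 5.49% were under the same FDR at day 2 and 7.98% at day 4. Shares from the authors' deposited tables, here and below, are over all listed genes with no filter on low values. They are therefore lower than shares over tested genes would be, and they are not a like background for members that all passed the filter. Of the members called by limma here, Id1 (FDR 0.504 and 0.228) and Smad7 (0.97 and 0.969) were not under it on either day in the authors' deposited table. Neither were Id2 at day 2 (0.425) and Smad6 at day 4 (0.218) in the authors' deposited table, and all of these had the same sign as here. For EpiLCs to day 2 DMSO the authors' deposited table lists 5 members, all higher (Bmp4, Smad6, Id1, Id2 and Id3), with 4.07% of all genes under the same FDR. Bmpr1a (FDR 0.284), Bambi (0.116) and Smad5 (0.652), called here, were not under it in the authors' deposited table.

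A wider list of 47 pathway genes, also chosen with earlier results known, gives the surroundings of these members. Of the 47, 29 passed the filter in the depletion table. At day 2, 10 of the 29 were higher with dTAG13 and 2 lower, beside 13.7% and 19.9% of all genes tested. At day 4, 15 were higher and 3 lower, beside 15.8% and 26.0%. Bmp6 passed the filter only through its dTAG13 libraries, with a mean of 0.594 in the others. Without it, 14 of 28 were higher at day 4. On both days 10 were called, 9 of them higher (Bmp7, Bmp8b, Eng, Fst, Twsg1, Smurf1, Ppm1a, Tob1 and Msx2) and 1 lower (Acvr2b, a type II receptor gene). The share of all genes called on both days is not given here, so this count is only a description. The median log2 difference over the 29 was 0.30 at day 2 and 0.36 at day 4, beside -0.09 and -0.13 over all genes tested, and these genes had to pass the filter, which favours genes high in some group.

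Among the other ligand genes, Bmp8b was 1.38 and 1.22 in day 2 DMSO and 13.2 and 16.3 in day 2 dTAG13, a difference of 2.77 (adjusted p = 1.4e-07), and at day 4 it was 0.107 and 0.597 in DMSO and 9.39 and 11.6 in dTAG13, a difference of 3.10. With DMSO this low the size depends on the scale, and it was 4.79 with a pseudocount of 0.1, 4.92 with edgeR and 4.99 with DESeq2. In EpiLCs it was 5.07 and 5.21. Reads of Bmp8b and its close copy Bmp8a may have been split or lost in counting, so this value is uncertain. Bmp7 rose by 1.56 and 1.73, from 1.76 and 2.17 to 6.84 and 8.70 at day 2. Bmp4 was the one tested ligand gene called lower, beside Bmp7 and Bmp8b, which were higher on both days. For Bmp6, which had to be high in dTAG13 to be tested at all, the day 4 value of 1.00 (adjusted p = 0.0258) is only a description. The Bmp6 call was lost in 5 of 12 alternatives and its value was 0.65 without day 4 DMSO replicate 1 and 2.16 with a pseudocount of 0.1.

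Eng, a co-receptor gene active in vessel-forming cells, was 33.5 and 23.7 in day 2 DMSO and 86.3 and 90.7 in day 2 dTAG13 (1.62, adjusted p = 2.8e-08), and it rose by 1.91 at day 4. Msx2, a homeobox target of the pathway, went from 8.43 and 6.38 to 14.8 and 21.7 at day 2 (1.18) and was higher by 1.51 at day 4. Id4, the remaining Id gene, was lower at day 4. It was 11.6 and 10.3 in day 2 DMSO and 10.1 and 8.83 in day 2 dTAG13 (-0.19, adjusted p = 0.586), then 14.8 and 14.9 in day 4 DMSO and 6.60 and 10.8 in day 4 dTAG13 (-0.75, adjusted p = 0.0179). The day 4 call was lost in 4 of 13 alternatives, namely DESeq2 (0.0949) and the fits without day 4 DMSO replicate 1 (0.0605), day 4 DMSO replicate 2 (0.0604) or day 4 dTAG13 replicate 1 (-0.43, adjusted p = 0.247). Hey1, a bHLH repressor gene, was the 1 target called lower at day 2, from 3.14 and 1.63 to 0.777 and 0.535 (-0.999, adjusted p = 0.0479), a call lost in 10 of 12 alternatives. The Hey1 value was -0.67 without day 2 DMSO replicate 1 and -1.67 with a pseudocount of 0.1. At day 4 Hey1 overlapped between the groups (-0.56, adjusted p = 0.253).

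Gata2, a GATA factor gene induced by BMP in several tissues, was 24.4 and 22.0 in day 2 DMSO and 26.3 and 31.6 in day 2 dTAG13. By day 4 Gata2 was 7.41 and 7.97 in DMSO and 32.6 and 32.7 in dTAG13 (1.95, adjusted p = 8.07e-08). From day 2 to day 4 in DMSO it fell by 1.48 (adjusted p = 5.69e-05). Gata2 was the one gene of the list whose dTAG13 effect differed between the days (1.65, adjusted p = 0.00492), though not with a constant prior variance (adjusted p = 0.0596).

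The antagonists were mixed. Fst, which encodes a secreted protein that traps activins and some BMPs, rose by 1.25 on both days, and lost its call without day 2 dTAG13 replicate 2 (0.95, adjusted p = 0.0694) and, at day 4, without day 4 dTAG13 replicate 2 (0.98, adjusted p = 0.0525). The day 4 value was 1.97 with edgeR and 1.996 with DESeq2. Fstl1, which encodes a related secreted protein, fell by 1.19 at day 4, from 22.9 and 21.3 to 10.9 and 7.63. Smurf1, which encodes a ubiquitin ligase acting on Smad1 and Smad5, rose on both days (0.83 and 0.79).

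Over the earlier step from EpiLCs to day 2 DMSO, 5 of the 29 were higher and 9 lower, beside 11.5% and 14.7% of all genes tested. To day 2 dTAG13 10 were higher and 7 lower, beside 20.3% and 29.7%. These steps share the EpiLC libraries. The values that follow are log2 differences. Among the targets Gata2 rose from 0.634 and 0.665 in EpiLCs by 3.87 in DMSO and 4.18 in dTAG13, Msx2 by 2.45 and 3.63, and Id4 by 1.59 and 1.40. Hey1 rose by 1.06 in DMSO, a call lost in 8 of 12 alternatives (0.73 without day 2 DMSO replicate 1). Among the receptor genes Rgma, which encodes a BMP co-receptor, fell from 17.2 and 12.1 by 1.39 in DMSO and 1.46 in dTAG13, and Acvr1, a type I receptor gene, from 18.5 and 22.4 by 1.21 and 1.20. Skil, which encodes a corepressor of Smads, fell by 1.22 in DMSO. It was lower in both arms, at 799 and 885 in EpiLCs, 342 and 378 in day 2 DMSO and 406 and 401 in day 2 dTAG13. Eng rose by 1.59 and Bmp7 by 2.51 in dTAG13. In DMSO the level of Bmp7 also rose, from 0.634 and 0.443 in EpiLCs to 1.76 and 2.17. Eng in DMSO overlapped its EpiLC levels. Bmp8b fell by 1.42 from EpiLCs to DMSO and rose by 1.35 to dTAG13. With edgeR the DMSO rise of Msx2 was 3.79 and the dTAG13 rise of Bmp7 3.96.

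From day 2 to day 4 in DMSO 4 of the 29 were called, 1 higher and 3 lower, beside 5.52% of all genes tested. Besides Gata2, Msx1, a homeobox gene related to Msx2, fell by 1.29, from 1.38 and 2.58 to 0.430 and 0 (adjusted p = 0.0239). Its size depends on the scale (-3.11 with a pseudocount of 0.1), and the call was lost in 4 of 12 alternatives, among them the fits without day 2 DMSO replicate 2 (adjusted p = 0.264) and day 4 DMSO replicate 2 (0.193).

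**Figure D3:**
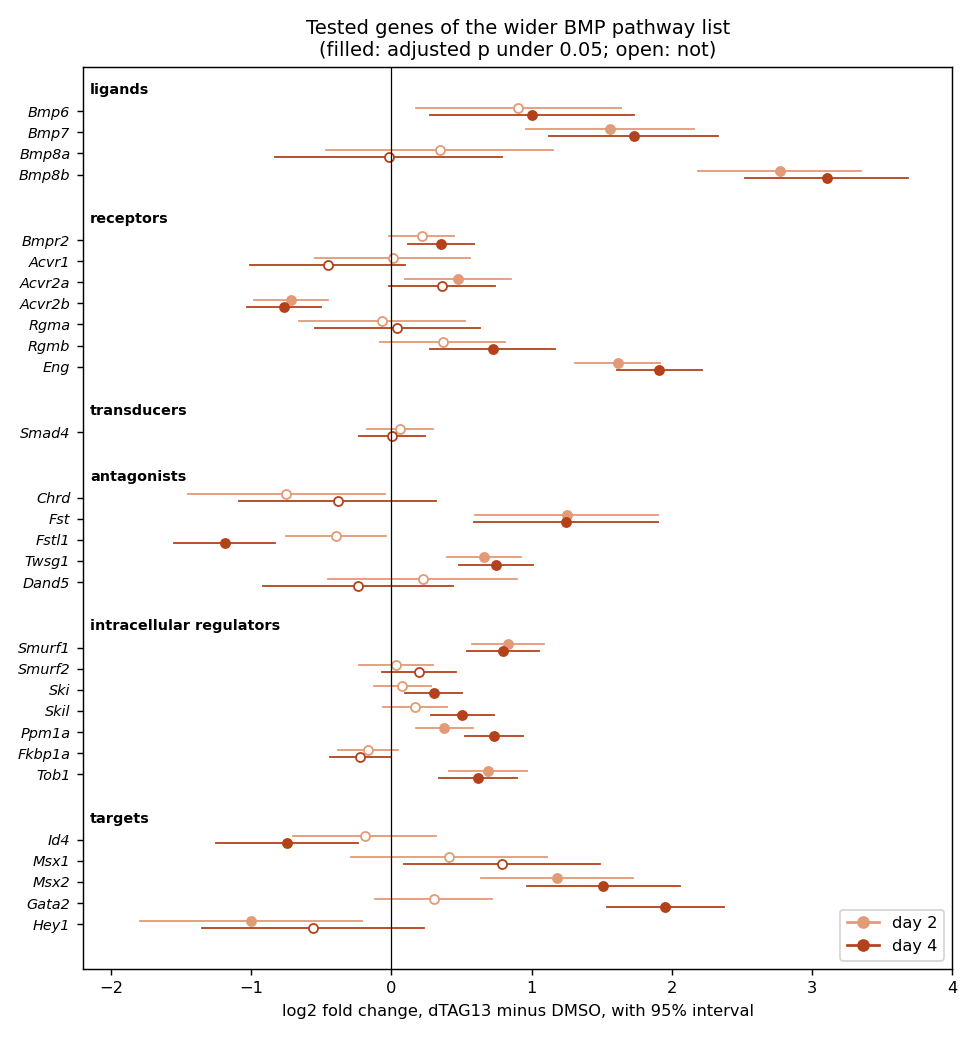
Log2 difference with 95% interval for dTAG13 minus DMSO at day 2 and day 4 for the 29 tested genes of the wider list, grouped by role; filled points passed an adjusted p of 0.05. Bmp8b, Eng and Bmp7 lie furthest to the right at day 2, and Bmp8b, Gata2, Eng, Bmp7 and Msx2 at day 4.

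Markers of several other cell types differed between dTAG13 and DMSO libraries as well. The summed level of 6 trophoblast or amnion markers was 37.2 to 38.8 in day 2 DMSO and 104 to 160 in day 2 dTAG13, and 19.7 to 21.3 against 74.6 to 141 at day 4. Without Krt18, a keratin gene that made up much of these sums, they were 18.9 to 20.8 against 42.9 to 47.4 at day 2 and 13.1 to 14.3 against 36.5 to 57.8 at day 4. Krt18 rose by 2.13 and 2.88, Gata3 by 1.33 and 2.26, Krt7 by 1.28 and 1.96 and Tfap2a by 0.68 and 0.89. Cdx2 passed the filter only through its dTAG13 libraries (mean 0.829 in the others), and it is part of both sums. The sum of 5 markers of extra-embryonic mesoderm and blood vessel was 6.92 to 10.7 against 25.2 to 34.4 at day 2 and 2.90 to 5.18 against 18.9 to 27.8 at day 4. Most of this was Hand1, which was higher by 2.06 and 2.60. The other 4 summed to 2.64 to 3.39 against 2.80 to 2.81 at day 2 and to 0.859 to 2.39 against 3.23 to 3.34 at day 4, and Cdh5 was at 0 in day 2 dTAG13. Only 2 of the 5 passed the filter, and Tal1 was not called on either day (-0.06 and 0.25). At the same time the sum of 8 germ cell markers was 254 to 269 in day 2 DMSO and 219 to 226 in day 2 dTAG13, and 295 to 327 against 264 to 272 at day 4. Tfap2c, which rose by 0.69 and 1.78, made up most of the dTAG13 sums. The other 7 summed to 163 to 165 in DMSO against 62.7 to 68.4 in dTAG13 at day 2, and to 243 to 267 against 68.5 to 80.5 at day 4. On each day 4 of the 8 were called lower and 1 higher. Of all genes tested, 19.9% were lower and 13.7% higher at day 2, and 26% and 15.8% at day 4. The median over the 8 was -0.67 at day 2 and -0.88 at day 4, beside -0.09 and -0.13 over all genes tested. Kit fell by 1.82 and 2.14, Prdm14 by 1.89 and 2.08, Prdm1 by 1.13 and 1.65 and Itgb3 by 0.98 and 1.15.

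The 4 neural ectoderm markers summed to 19.4 to 20.4 in day 2 DMSO and 40.3 to 47.4 in day 2 dTAG13, but only Neurod1 (2.62) was called higher, while Pax6 (-1.13) and Sox1 (-0.66) were called lower. Without Neurod1 the sum went from 13.5 to 16.1 down to 7.09 to 8.55. At day 4 Neurod1 was higher by 4.42 and Pax6 lower by 1.39, and Sox1 did not pass (-0.26, adjusted p = 0.401). Sums for 7 endoderm markers were 3.14 to 4.75 against 6.84 to 7.63 at day 2 and 4.68 to 5.91 against 8.74 to 13.3 at day 4. For 5 fibroblast markers they were 2.26 to 2.85 against 4.51 to 7.63 and then 1.72 to 3.49 against 4.77 to 5.28. In each of these 2 lists 2 genes passed the filter. Gata6 and Col1a1 did so only through their dTAG13 libraries. Without Gata6 the endoderm sums were 2.39 to 3.66 against 3.11 to 4.01 at day 2 and 4.18 to 5.58 against 2.70 to 5.87 at day 4, overlapping on both days. Without Col1a1 the fibroblast sums were 0.755 to 2.04 against 2.02 to 3.08 and then 1.504 to 2.49 against 1.76 to 2.07, which overlapped as well. The remaining tested genes, Gata4 and Thy1, were not called on either day. The primitive streak and nascent mesoderm genes that were tested, Eomes, Evx1 and Fgf8, did not pass on either day (adjusted p at least 0.436). Of 5 formative epiblast markers, Pou3f1 was higher (1.39 and 1.79) and Zic2 lower (-0.999 and -0.63) on both days, and the other 3 did not pass. The libraries are bulk RNA, so more cells of a type and more RNA per cell cannot be told apart. The part of these cell-type markers in the differences of the Id, Smad and Bmp genes was not tested.

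Over the 10 libraries of the depletion table, the tested genes whose log2 levels ran most like Id1 were Tfap2c (Pearson r 0.98), Rnf39 (0.98), Tmem37 (0.98), Ap1m2 (0.97) and Bace1 (0.97). Tfap2c encodes a transcription factor of the germ cell and trophoblast lineages. Over the 12 libraries of the overexpression table they were Sox2 (0.99), Tnip1 (0.99), Ly6g6e (0.99), Prdm14 (0.99) and Bcl3 (0.99), and no gene was in both groups of 5. The libraries of a table share the step from EpiLCs to PGCLCs and one scaling, and the correlations are given as a description.

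In the overexpression experiment the Id genes and Bmp4 were induced in the vector line and in both clones. Id1 was 7.96 in the empty-vector EpiLCs and 4.18 and 8.10 in the clones, and at day 2 it was 266 in the vector line and 258 and 247 in the clones. At day 4 Id1 was 194, 219 and 204, and at day 6 it was 207, 189 and 194, each time with the vector line first. For Id1 the vector and clone libraries of a stage lay close together beside the rise between EpiLCs and day 2. The vector library was between the clones in EpiLCs, above both at day 2 and day 6 and below both at day 4.

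Id2 peaked at day 2 and then declined. It was 19.7 in the empty-vector EpiLCs and 11.8 and 11.8 in the clones, 107 against 103 and 106 at day 2, 57.9 against 51.0 and 57.7 at day 4, and 29.2 against 31.2 and 36.7 at day 6. Id3 was 5.56 against 6.11 and 5.91 in EpiLCs, 68.2 against 46.4 and 55.3 at day 2, 46.6 against 50.0 and 44.8 at day 4, and 39.8 against 39.2 and 35.5 at day 6. For Id2 the vector library was above both clones up to day 4 and below both at day 6. For Id3 it was below both clones in EpiLCs, between them at day 4 and above both at day 2 and day 6.

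Bmp4 rose through day 4 in every line, from 5.11 in the vector EpiLCs and 6.56 and 3.98 in the clones to 47.0, 38.1 and 44.2 at day 2 and 104, 102 and 113 at day 4. At day 6 it was 99.1, 93.6 and 77.6. Smad6 was 4.51, 5.67 and 3.71 in EpiLCs, 12.2, 18.8 and 17.4 at day 2, 24.7, 20.1 and 15.1 at day 4, and 13.9, 14.6 and 16.2 at day 6. The Smad6 vector library was below both clones at day 2 and above both at day 4. Smad7 went from 108, 116 and 116 in EpiLCs to 234, 235 and 221 at day 6. Smad5 lay between 57.4 and 103, Smad1 between 39.1 and 70.9, Bmpr1a between 116 and 180 and Bambi between 12.5 and 27.9 over the 12 libraries.

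The 12 libraries come from 3 lines, each sampled at 4 stages, and the fit over all stages counts the stages of a line as separate samples. Its p-values and intervals therefore do not cover how lines vary, and with 1 vector line that could not be tested. In that fit, with stage as a covariate, no member differed between clones and vector in limma (0 of 10 called, with 8.76% of all genes tested called). At an unadjusted p under 0.05 there were 0 members, and edgeR and DESeq2 also called 0. The difference was -0.11 for Id1 (95% interval -0.31 to 0.08, adjusted p = 0.53), -0.16 for Id2 (-0.36 to 0.05, adjusted p = 0.387) and -0.10 for Id3 (-0.30 to 0.10, adjusted p = 0.616). Without the empty-vector EpiLC library Smad5 was called (-0.23, adjusted p = 0.0495). Within single stages, 80 clone-minus-vector differences over the members had a median size of 0.15 on the log2 scale, 7 reached 0.5, and the largest in size was -0.79, for Id1 in EpiLCs of clone 1. In the authors' deposited table, Id2 in EpiLCs was the 1 member that differed at a stage (log2 fold change -0.74, FDR 0.0381), with 0.677% of all genes under an FDR of 0.05 there.

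**Figure D4:**
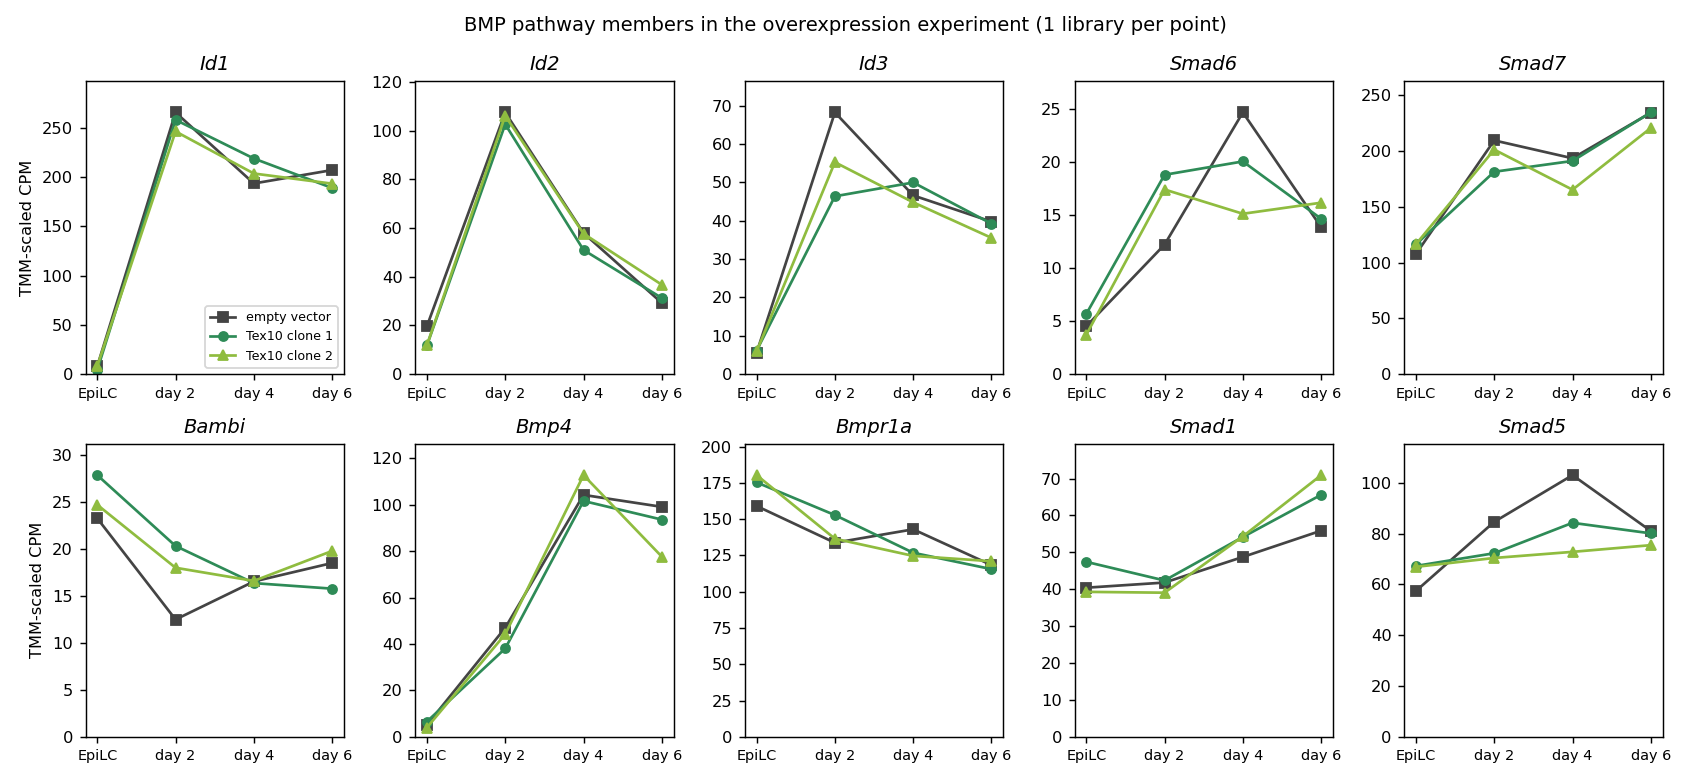
Level of each member in TMM-scaled CPM (vertical axes from 0, one scale per gene) at the 4 stages (horizontal axes); each point is 1 library, squares are the empty-vector line, circles and triangles the 2 Tex10 clones. At most stages the 3 lines differ by less than 0.5 on the log2 scale, with 7 of 80 clone-minus-vector differences at or above it, and Id1 rises from below 10 to above 240 at day 2 in each.

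The step from EpiLCs to day 2, fitted over the 3 lines, repeats the induction in a second set of libraries. Id1 rose by 5.10, Id2 by 2.82, Id3 by 3.05, Bmp4 by 2.84, Smad6 by 1.60 and Smad7 by 0.79, and Bambi fell by 0.57 and Bmpr1a by 0.28. That made 8 of 10 members called, 6 higher and 2 lower, against 46.3% of all genes tested (24.1% higher and 22.1% lower). Smad5 (0.24, adjusted p = 0.0594) and Smad1 (-0.04) were not called. Smad7 rose here, whereas in the depletion experiment its DMSO libraries overlapped the EpiLC libraries. Of the wider list, 8 of 32 were higher over this step and 8 lower, which is near the shares of all genes (24.1% and 22.1%). Id4 rose by 2.65, Msx2 by 2.58, Bmp7 by 1.87, Gata2 by 1.84 and Hey1 by 1.52, and Fst fell by 2.74, Rgma by 1.81 and Bmp8b by 1.48. With DESeq2 the rises of Msx2 and Gata2 were 3.91 and 3.22 and the Bmp8b fall was -2.57. Kits and tables differed between the experiments, and a difference between them was not tested.

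The step itself was compared between clones and vector. The vector line had 1 library at each stage, which was assumed to vary like the other groups. Intervals and p-values of this fit therefore do not cover how lines vary. In limma 0 of 10 members were called, with 1.29% of all genes tested called, 3 members at an unadjusted p under 0.05, and 0 by edgeR and by DESeq2. The largest in size were 0.65 for Id2 (95% interval 0.21 to 1.09, adjusted p = 0.157), -0.52 for Id3 (adjusted p = 0.419), 0.51 for Smad6 (adjusted p = 0.677) and -0.47 for Smad5 (adjusted p = 0.203). For Id1 the value was 0.31 (adjusted p = 0.67), and without the EpiLC library of clone 2 it was 0.72 (adjusted p = 0.0385). Without the EpiLC library of clone 1 it was -0.098 (adjusted p = 0.93). In both fits the clone EpiLC group had a single library, which was assumed to vary like the other groups.

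Of the wider list, 32 of 47 genes passed the filter in the overexpression table. With overexpression 0 were higher and 3 lower, namely Fstl1 (-0.42), Twsg1 (-0.21) and Skil (-0.19), none of which reached a difference of 0.5. With 8.76% of all genes tested called in either direction, 3 of 32 is near the background. The Fstl1 call was lost in 2 of 21 alternatives, that of Twsg1 in 12 and that of Skil in 9. The step from EpiLCs to day 2 differed for 1 gene of the list, the type II receptor gene Bmpr2 (-0.73, adjusted p = 0.0293), with 1.29% of all genes tested called. It went from 66.2 to 87.1 in the vector line, from 77.7 to 67.9 in clone 1 and from 80.8 to 57.4 in clone 2. With 1 vector library at each stage, the spread came from other groups, and the Bmpr2 call does not cover how lines vary. This call was lost in 6 of 13 alternatives, DESeq2 included (adjusted p = 0.0959).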

How the data were processed

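RNA-seq libraries were made from Trizol-extracted total RNA with a NuGEN Ovation kit (depletion) or a Tecan Universal Plus kit (overexpression), per the labels. Per the submitters' processing notes, Bowtie2 2.3.4.3, SAMtools 1.9, HTSeq 0.11.2, edgeR 3.26.8 and mm10 were used, with no roles given; the gene annotation is not given in the sources used here. The deposited values are a signal that the authors scaled by TMM. In each library every value was a whole multiple of a step of 0.0996 to 0.187 (100% whole at a tolerance of 0.01 reads), so 1 step was taken as 1 read. In day 4 DMSO replicate 2 the step was 0.0996, near the rounded 0.1, and was treated like the others. A floor of 3 reads was worth 0.299 to 0.56, for counting error only. The deposited tables also hold the authors' log2 fold changes and FDR-adjusted p-values, per the file headers. Testis samples of the series were not analysed here.

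The unit called for limma 3.58.1 (R 4.3.3, mean-variance trend) on log2(value + 1), not a count test. Tested were the genes whose mean over a table's libraries reached 1, 16605 in the depletion and 15255 in the overexpression table. This scale understates changes of low genes. P-values were adjusted by Benjamini-Hochberg within each of 9 comparisons over all genes tested, and genes were called at an adjusted p under 0.05. All libraries of a table entered the fit, with stage (overexpression against vector) or line (day 2 against EpiLCs) as covariate in the overexpression table. Recovered reads were tested with edgeR 4.0.16 and DESeq2 1.42.0 as alternatives. Other alternatives were a pseudocount of 0.1, other filters, median-ratio scaling, no variance trend, only the groups compared, the replicate number as a block, and each library left out. Clones are the same lines at every stage, so line pairs those libraries. Replicate numbers of the depletion table are not stated to mark anything shared.

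The 10 members, the wider list, the marker lists and the naming rule were chosen with earlier results of these data known. Named were all members, Tex10, and up to 8 wider genes per comparison that were called, moved by at least 1 (0.5 for overexpression) and had separate groups. Smurf1, Twsg1, Bmpr2, Id4, Hey1 and Skil outside the steps from EpiLCs, Fstl1 in the overexpression table, and the genes listed as called on both days were named after their values were seen, as were the markers given by name. The same holds for Skil in dTAG13 and for Bmp7 and Eng in DMSO over the step from EpiLCs. In simulated data for day 2 dTAG13 against DMSO (16619 genes, 200 of them changed), the fit recovered 77% of 2-fold and 12% of 1.5-fold changes. For overexpression (15258 genes, 200 changed) it recovered 100% and 70%. Simulated libraries were drawn independently, with one setting of the spread for all genes and no variation between lines. These shares check the fit and do not measure how many real changes it would find in these data.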

Additional observations from a re-analysis of the deposited data

How the results depend on the processing

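Of 2038 alternative values for the named genes, 1865 kept their direction and their side of the threshold, 113 lost a call, 13 gained one and 47 changed sign, 0 of them among called results. In the simulated day 2 comparison the fit recovered 12% of 1.5-fold changes. Only 200 genes were changed there, far fewer than were called in the data, so the threshold differed. The simulation therefore cannot tell how often a change of that size was missed here, and a missed call does not show that a gene was unchanged. The number of members called from EpiLCs to day 2 DMSO was 5 without the variance trend and 5 to 6 with a library left out. From day 2 to day 4 DMSO it was 0 with no filter and 0 without the trend, and 0 to 2 with a library left out. With a library left out it was 0 to 1 for the difference of the dTAG13 effects, for overexpression and for the difference of the day 2 steps. With the replicate number as a block, 7 members were called at day 2 and 7 at day 4 for dTAG13 against DMSO; the block changed 1 member's call, Smad5 from EpiLCs to day 2 DMSO (0.34, adjusted p = 0.0549), and in the wider list that of Hey1 at day 2 (adjusted p = 0.055) and from EpiLCs to day 2 DMSO (0.0518). Correlations of same-numbered deviations ran from -0.128 to 0.118 over the 10 pairs of depletion groups (0.118 for EpiLCs with day 2 DMSO), so the numbers were not taken to pair libraries. Without the line as a block, 8 members were called in the overexpression day 2 step, as with it. For dTAG13 against DMSO, DESeq2 called 6 members at day 2 and 7 at day 4. Member calls of that comparison that were lost with a library left out are given above, gene by gene.

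With median-ratio scaling, edgeR and DESeq2 in this order, the sign changed for Smad1 in the difference of dTAG13 effects (0.0035, 0.0082 and 0.0060), Smad6 from EpiLCs to day 2 dTAG13 (0.10, 0.13 and 0.13) and Bmpr1a from day 2 to day 4 DMSO (-0.032, -0.027 and -0.030). With a library left out, values spanned 0 for Bmpr1a with dTAG13 at day 2 (-0.043 to 0.12) and Hey1 at day 4 (-1.19 to 0.071). In the difference of dTAG13 effects they did so for Bambi (-0.32 to 0.39), Smad1 (-0.13 to 0.087), Smad7 (-0.030 to 0.23) and Id1 (-0.22 to 0.58). From EpiLCs to day 2 it was Smad7 in DMSO (-0.063 to 0.20) and Bmp4 (-0.081 to 0.44) and Smad6 (-0.22 to 0.22) in dTAG13. From day 2 to day 4 DMSO it was Bmpr1a (-0.11 to 0.12), Smad5 (-0.18 to 0.11), Smad7 (-0.063 to 0.20) and Id1 (-0.59 to 0.22). For overexpression it was Bmpr1a (-0.025 to 0.090), Smad6 (-0.10 to 0.23), Id2 (-0.28 to 0.024) and Id3 (-0.16 to 0.0098), and for its day 2 step Smad1 (-0.11 to 0.020). In the difference of the day 2 steps it was Bmp4 (-0.50 to 0.10), Bmpr1a (-0.13 to 0.031), Smad1 (-0.26 to 0.0012) and Id1 (-0.10 to 0.72). The causes were not tested.

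Over all genes, calls for the difference of dTAG13 effects were 208, but 16 with no filter and 0 without the trend. From day 2 to day 4 DMSO they were 916, but 341, 445 and, with only the groups compared, 569. For overexpression they were 1337, but 642 with no filter and 431 without the trend, and for the difference of the day 2 steps 197, but 1400, 0 and, with DESeq2, 87. Leaving out 1 library also moved these counts by over 1.5 times. The difference of dTAG13 effects fell to 101 and 95 without day 2 DMSO replicate 1 or 2, 49 and 115 without day 2 dTAG13 replicate 1 or 2 and 44 without day 4 dTAG13 replicate 2, and was 366 without day 4 DMSO replicate 2. Day 2 dTAG13 against DMSO went from 5577 to 3603 without day 2 DMSO replicate 1. EpiLCs to day 2 DMSO went from 4347 to 2496 without EpiLC replicate 2 and 2889 without day 2 DMSO replicate 1. Day 2 to day 4 DMSO went to 489 and 425 without day 2 DMSO replicate 1 or 2. Overexpression went to 812 and 751 without the vector library of day 2 or day 4, and to 425 and 413 without all libraries of clone 1 or 2. The difference of the day 2 steps went to 61 and 72 without the EpiLC library of clone 1 or 2. The shares of all genes given beside member counts move with these counts.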
